A study of Rattus norvegicus with 4 samples.

Results

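The actins and tropomyosins that build thin filaments were followed on 4 Affymetrix rat genome U34 arrays (array A of the set) of rat left ventricle. All probe sets whose platform gene symbol is Acta1, Actc1, Acta2, Actb, Tpm1, Tpm2, Tpm3 or Tpm4 were taken, which gave 19 probe sets of the 7006 with a single gene symbol, for 8 genes of 4736. Acta1, Actc1, Actb and Tpm2 had 1 probe set each, Tpm4 had 2, Acta2 had 3, and Tpm1 and Tpm3 had 5 each. A further 6 probe sets carry an actin member together with another actin gene; they are given below with their values, assigned to no gene and left out of every count.

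Total RNA was hybridised to 1 array for each of 4 groups. The first group is titled terminal heart failure, and its title names no genotype. The second is dTGR given losartan, which blocks the type 1 angiotensin II receptor. The third is dTGR, the double transgenic rat that carries the human renin and human angiotensinogen genes and makes human angiotensin from them. The last is the Sprague Dawley (SD) control. The description attached to all 4 samples is that of the transgenic strain, with hypertension, cardiac hypertrophy, proteinuria and death at 7 weeks, so that text does not tell the groups apart. Losartan dose, ages, the number of animals behind each array and any pooling were not given in the labels. With 1 array per group there is no replicate error and no test, and every difference below is the size of a difference between 2 arrays.

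Actin polymerises into the filaments that myosin pulls on, and tropomyosin lies along them and, with troponin, sets when calcium lets myosin bind. The adult rodent ventricle makes mostly cardiac alpha-actin (Actc1) and alpha-tropomyosin (Tpm1), while the fetal rodent heart also makes skeletal alpha-actin (Acta1) and beta-tropomyosin (Tpm2). Return of such fetal isoforms is a known feature of the pressure-loaded rat heart. Acta2 is the actin of smooth muscle cells and myofibroblasts, Actb is the cytoplasmic actin of nearly all cells, and Tpm3 and Tpm4 supply mainly cytoplasmic and slow muscle tropomyosins.

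Muscle actin genes are textbook targets of serum response factor, which binds the CArG box, a 10-base element with CC and GG around 6 A or T bases. TEF-1 family factors bind CATTCC. Windows from 250 bases before to 50 bases after the gene start, from RefSeq on GRCr8, were found for 7 of the 8 members. For Acta1, Actc1, Acta2 and Tpm4 the window's start is the 5′ end of the annotated gene. For Tpm1, Tpm2 and Tpm3 it lies inside the annotated gene, so their windows are not described. The windows of both sarcomeric alpha-actins and of the smooth muscle actin are shown because these genes are the muscle actins compared below. Each is printed 5′ to 3′ on the gene's strand, which is the minus strand in all 3, and capitals mark the CArG box. The regions are chr19:68784145-68784444 for Acta1, chr3:121271778-121272077 for Actc1 and chr1:241172454-241172753 for Acta2.
Acta1: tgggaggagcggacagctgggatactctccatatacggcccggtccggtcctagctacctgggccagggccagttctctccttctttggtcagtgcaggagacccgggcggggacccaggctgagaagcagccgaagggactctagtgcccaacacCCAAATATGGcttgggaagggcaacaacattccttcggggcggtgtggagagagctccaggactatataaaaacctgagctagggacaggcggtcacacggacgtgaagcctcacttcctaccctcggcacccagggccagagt
Actc1: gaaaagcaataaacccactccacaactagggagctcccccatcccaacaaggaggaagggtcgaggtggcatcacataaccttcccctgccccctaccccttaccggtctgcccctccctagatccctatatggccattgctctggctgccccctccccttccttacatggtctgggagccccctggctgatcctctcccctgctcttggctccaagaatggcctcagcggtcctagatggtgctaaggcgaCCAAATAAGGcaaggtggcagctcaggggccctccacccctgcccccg
Acta2: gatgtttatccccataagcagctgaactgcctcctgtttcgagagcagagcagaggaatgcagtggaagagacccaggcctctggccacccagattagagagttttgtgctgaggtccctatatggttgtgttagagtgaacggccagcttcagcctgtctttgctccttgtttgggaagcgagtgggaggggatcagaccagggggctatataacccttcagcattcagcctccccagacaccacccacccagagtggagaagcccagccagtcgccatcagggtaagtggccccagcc
The Acta1 window holds a CArG box whose first base lies 94 bases before the start, and a CATTCC 67 bases before it. The Actc1 window holds a CArG box that begins 2 bases after the annotated start, and no CATTCC. The Acta2 window has no CArG box in these strict letters and holds GGAATG, the reverse complement of CATTCC, 196 bases before the start. It does hold ccctatatgg and ccttgtttgg, which have the CC and GG but a C or G among the 6 bases between. The search did not count such near forms, which also occur in the Actc1 window (ccctatatgg) and the Acta1 window (ccttctttgg). The missing strict match therefore does not show that Acta2 lacks a serum response factor site. Both strands were searched, and the Tpm4 window held neither motif. The CArG box occurred in 1.64% of 33469 RefSeq windows of this length and CATTCC in 14.2%. These matches describe the letters of the windows and were not tied to the array values.

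The deposited intensities are linear, with 1 value for each probe set on an array, and had been adjusted by the authors to a common level, and rescaling to an equal trimmed mean moved no array by more than 0.0304%. Values under 26, the 40th percentile over all arrays, were treated as under the floor, and a difference with 1 side under it is given as a bound. By the instrument records, dTGR and SD control came from 1 chip lot and terminal heart failure and losartan from another. The terminal array alone had a separate run day, and the dTGR array alone a different fluidics protocol. Each of these factors therefore cannot be told apart from the groups it separates. The dTGR array also held more of its signal in its brightest probe sets: the brightest 100 took 46.3% of the total on it and 31.8% to 36.9% on the others. Because several members are among the brightest probe sets, the 140 brightest other probe sets (the brightest 2%) are given beside them. Those 140 had a median log2 difference of 0.43 in dTGR against SD control, with quartiles of 0.12 and 0.73. Their median was -0.49 in terminal heart failure against dTGR, with quartiles of -0.82 and -0.16, and -0.10 in terminal heart failure against SD control.

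Of the 19 member probe sets, 13 were above the floor on all 4 arrays, 3 were under it on all 4, and 16 could be compared in each comparison. In dTGR against SD control 5 of 16 were at least 2-fold higher and 1 was at least 2-fold lower, beside 7.98% higher and 6.14% lower among all 5014 probe sets compared. The 5 were those of Acta1, Actc1 and Tpm2, 1 of Tpm1 and 1 of Tpm3, and the lower one was of Tpm4. Under other scalings this split was 3 higher and 2 lower (equal medians) or 2 higher and 1 lower (quantile normalization, and cyclic loess), and the Tpm2 and Tpm3 probe sets were the ones still 2-fold higher under all of them. The median over the 16 was 0.64, against 0.05 over all probe sets, and it was 0.40 with equal medians, 0.15 with quantile normalization and 0.46 with cyclic loess.

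**Figure D1:**
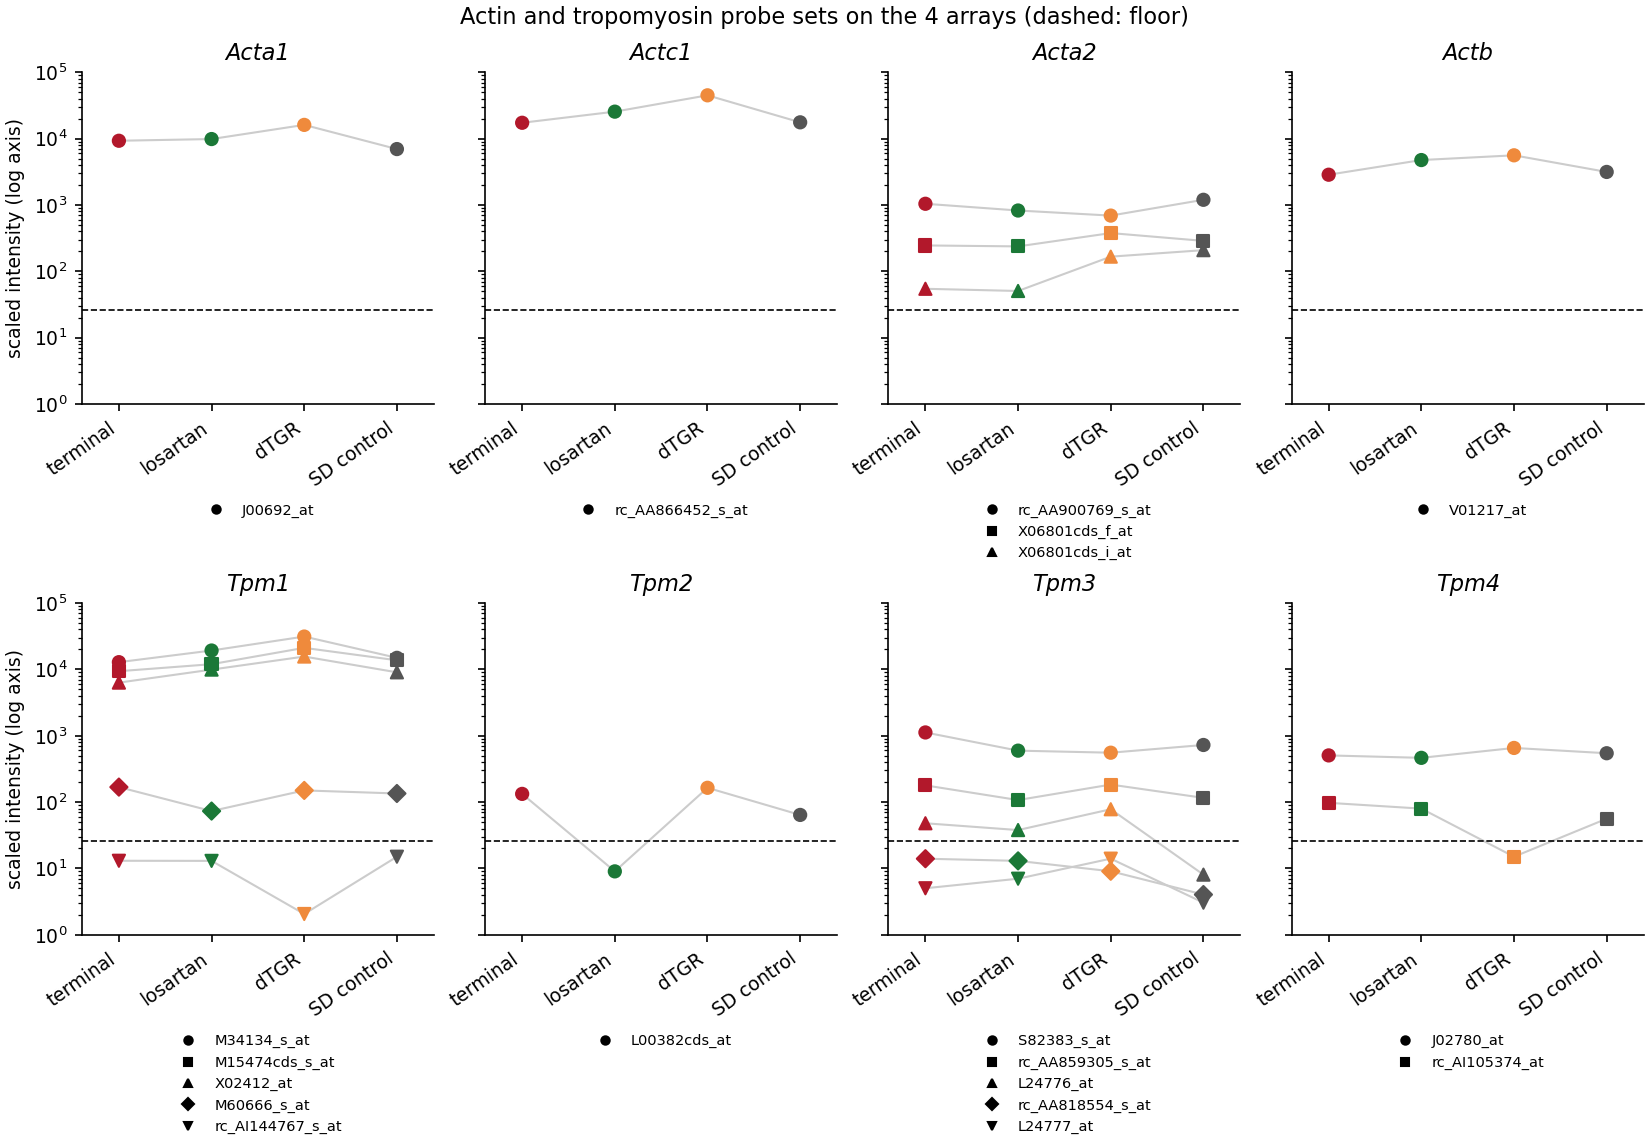
Scaled intensity of each of the 19 probe sets, by gene, on the terminal heart failure, losartan, dTGR and SD control arrays (y axis, logarithmic). Each point is 1 array, grey lines join the points of 1 probe set, and the dashed line is the floor of 26. The probe sets of Acta1, Actc1 and Actb and the 3 brightest of Tpm1 are highest on the dTGR array, and Tpm2 is under the floor on the losartan array.

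Acta1 (J00692_at), the skeletal alpha-actin, had an intensity of 9278 in terminal heart failure, 9847 with losartan and 16092 in dTGR, against 6955 in SD control. It was highest in dTGR and lowest in SD control, with terminal heart failure and losartan next to each other between them. It was 2.31-fold higher in dTGR than in SD control (log2 1.21), 1.33-fold higher in terminal heart failure and 1.42-fold higher with losartan. Against dTGR it was 1.63-fold lower with losartan and 1.73-fold lower in terminal heart failure. The dTGR difference from SD control lay above the upper quartile of the 140 bright probe sets, and it was 0.97, 0.55 and 0.80 with equal medians, quantile normalization and cyclic loess.

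Actc1 (rc_AA866452_s_at), the main sarcomeric actin of the adult heart, had an intensity of 17320 in terminal heart failure, 25478 with losartan and 44905 in dTGR, against 17591 in SD control. It was the brightest of the 7006 probe sets on 3 arrays and ranked 2 in SD control. It was highest in dTGR, intermediate with losartan, and nearly equal in terminal heart failure and SD control. The difference was 2.55-fold in dTGR against SD control (log2 1.35), and in terminal heart failure it was 2.59-fold lower than in dTGR. Quantile normalization took these differences to 0.00 and 0.04 on the log2 scale. It gives equal values to equal ranks among all probe sets of an array, including those outside the 7006, so the ranks above are not the ones it used.

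A further 4 probe sets are annotated to both Acta2 and Actc1 and are assigned to neither. X80130cds_i_at had intensities of 20730 in terminal heart failure, 28463 with losartan and 49732 in dTGR, against 22578 in SD control, and X80130cds_f_at had 12959, 17903 and 33070, against 13840. The pair rc_AI104567_g_at and rc_AI104567_at had 7303, 11989 and 20877, against 9557, and 31.1, 44.3 and 114, against 50.2, in the same order. All 4 were highest in dTGR and lowest in terminal heart failure, and their dTGR values were 2.18-fold to 2.39-fold those of SD control.

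Cardiomyocyte markers, summed, had the same order over the 4 arrays as Actc1 and Tpm1 M34134_s_at. Some single markers did not share it. Pln (3491) and Actn2 (4685) were highest with losartan, Ryr2 (53.5) was lowest with losartan, and Tnnt2 (11284) was lowest in SD control. All 10 on the array were above the floor on each of the 4 arrays, their summed intensity was 88133 in terminal heart failure, 123831 with losartan and 172682 in dTGR, against 99061 in SD control, and 1 of 10 (Tnnt2) was at least 2-fold higher in dTGR than in SD control, with a median of 0.71, beside 7.69% of all genes. In this bulk tissue, fewer cells of a type and less RNA per cell cannot be told apart. Of 10 skeletal muscle markers, 6 were under the floor on each array, and Myh2, Myh4, Tnni2 and Tnnc2 were under it on all 4. Myh1, a fast skeletal myosin heavy chain, Myh3, an embryonic one, and Ckm, which the heart also expresses, were above it on all 4. Myh1 had 131.7 in terminal heart failure, 89.4 with losartan and 77.0 in dTGR, against 64.6 in SD control, and Tnnt3 was above the floor in terminal heart failure alone, at 49.0. The others compared between terminal heart failure and SD control were lower, Myh3 by -0.15, Ckm by -0.31 and Pvalb by -0.35 (a bound) on the log2 scale. The median over the 5 skeletal muscle markers compared there was -0.15, against -0.14 over all genes. The part of cell composition in the actin differences was not tested.

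Acta2, the smooth muscle actin, had 3 probe sets that did not follow each other. The brightest, rc_AA900769_s_at, had 1042 in terminal heart failure, 825 with losartan and 691 in dTGR, against 1196 in SD control. It was lowest in dTGR, 1.73-fold below SD control (log2 -0.79), and 2-fold lower there only with equal medians. The X06801cds_f_at probe set, which in Affymetrix's naming covers a family of related sequences, had 245 in terminal heart failure, 237 with losartan and 377 in dTGR, against 287 in SD control. It was highest on the dTGR array, like the bright sarcomeric actins.

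The i_at partner of that Acta2 probe set, X06801cds_i_at, had 54.5 in terminal heart failure, 50.5 with losartan and 166 in dTGR, against 208 in SD control. It was 3.82-fold lower in terminal heart failure and 4.12-fold lower with losartan than in SD control, and these differences were at least 2-fold under every scaling and floor tried. The arrays split in this probe set as the chip lots do, with both arrays of 1 lot low and both of the other high, so lot and group cannot be told apart here. Other members split by lot too. Acta2 X06801cds_f_at, Tpm1 M15474cds_s_at and Tpm4 J02780_at were lower on both the terminal heart failure and losartan arrays, and Tpm4 rc_AI105374_at was higher on both. The summed intensity of 4 smooth muscle cell markers was 739 in terminal heart failure, 1647 with losartan and 819 in dTGR, against 1171 in SD control, with Myl9 the largest term on each array. That sum does not split by lot. Cnn1 (calponin) had 45.8 in terminal heart failure, 16.1 (under the floor) with losartan and 58.6 in dTGR, against 50.8 in SD control. Its terminal heart failure value was near that of SD control (log2 -0.15), and the losartan array alone stood apart. Of these 4, Myh11, the smooth muscle myosin heavy chain, was 2.43-fold lower in dTGR than in SD control, and Myl9, a regulatory light chain, was 2.17-fold lower in terminal heart failure than in SD control. Another Myl9 probe set gave a log2 difference of -0.83 in terminal heart failure. In dTGR it gave 0.01, beside -0.90 for the brightest. Tagln differed by 0.45 in dTGR and 0.20 in terminal heart failure, and by -0.30 and -0.08 by another probe set.

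Actb (V01217_at), the cytoplasmic actin often used as a loading control, had 2855 in terminal heart failure, 4750 with losartan and 5599 in dTGR, against 3144 in SD control. It was 1.78-fold higher in dTGR and 1.51-fold higher with losartan than in SD control, and 1.96-fold lower in terminal heart failure than in dTGR. The array also carries control probe sets for rat beta-actin, which read the 5′ end, the middle and the 3′ end of the transcript and were not among the 19.

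The 3′ control probe set had 3279 in terminal heart failure, 2409 with losartan and 4963 in dTGR, against 3877 in SD control. The middle one had 3070, 1105 and 2574, against 2990, and the 5′ one 2013, 1064 and 2396, against 2659, for the same arrays. On the losartan array all 3 controls were lower than in SD control, by log2 differences of -0.69, -1.44 and -1.32 from the 3′ to the 5′ end, while V01217_at was higher by 0.60. In dTGR against SD control the controls gave 0.36, -0.22 and -0.15, against 0.83 for V01217_at. The ratio of 3′ to 5′ beta-actin signal was 1.63 in terminal heart failure, 2.26 with losartan and 2.07 in dTGR, against 1.46 in SD control, and the GAPDH ratio was 1.28, 2.17 and 1.73, against 1.345. Such a ratio rises where RNA is shorter towards its 5′ end, and its part in the Actb differences was not tested.

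The 2 probe sets shared between beta- and gamma-actin, rc_AI070848_f_at and rc_AI179012_s_at, had 5082 and 5260 in terminal heart failure, 2823 and 3474 with losartan and 6710 and 7664 in dTGR, against 5981 and 4288 in SD control. Both were highest in dTGR and lowest with losartan, an order that differs from that of V01217_at. The probe set annotated to Actg1 alone, the cytoplasmic gamma-actin, is X52815cds_f_at. It had 2693 in terminal heart failure, 2126 with losartan and 2084 in dTGR, against 2106 in SD control. It was the least variable of the actins named here outside terminal heart failure. Like Acta2 X06801cds_f_at, it covers by its name a family of related sequences, so its signal may not be Actg1 alone.

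**Figure D2:**
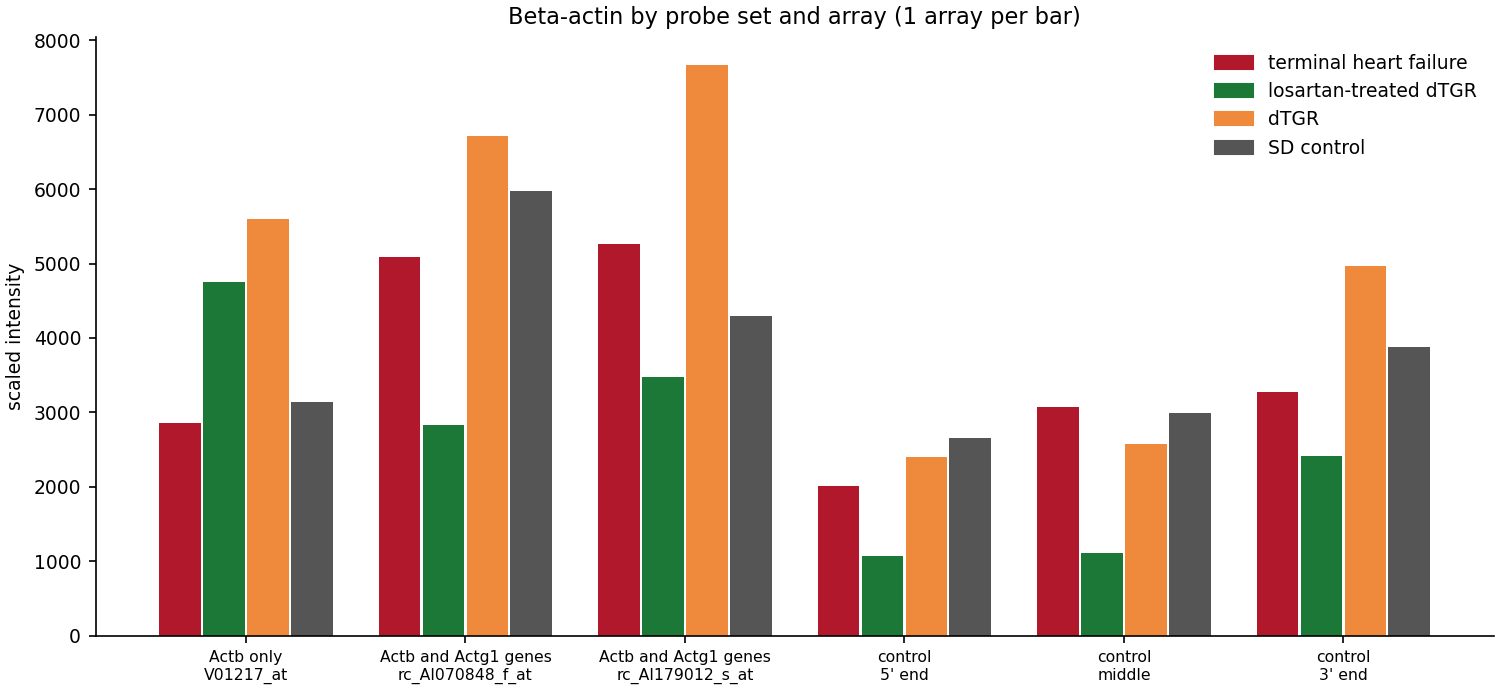
Scaled intensity (y axis, linear from 0) of Actb V01217_at, the 2 probe sets shared by beta- and gamma-actin, and the 5′, middle and 3′ beta-actin controls (x axis). Each bar is 1 array, in the order terminal heart failure, losartan-treated dTGR, dTGR and SD control. V01217_at is higher on the losartan array than on SD control, and the other 5 probe sets are lower there.

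Tpm1 encodes alpha-tropomyosin, and its transcripts are spliced into striated muscle, smooth muscle and cytoplasmic forms. The files do not say which form each probe set reads. Its brightest probe set, M34134_s_at, had 12863 in terminal heart failure, 19267 with losartan and 31279 in dTGR, against 14943 in SD control. M15474cds_s_at had 9397, 11990 and 21136, against 13718, and X02412_at had 6323, 9935 and 15631, against 9043, on the same arrays. All 3 were highest in dTGR and lowest in terminal heart failure, and only M34134_s_at was at least 2-fold higher in dTGR than in SD control (2.09-fold, log2 1.07). The other two differed by 0.62 and 0.79, the first of them inside the quartiles of the 140 bright probe sets. With quantile normalization the 3 differences were -0.07, -0.36 and 0.06, so their direction in dTGR against SD control depends on the scaling.

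These 3 Tpm1 probe sets were 2.43-fold, 2.25-fold and 2.47-fold lower in terminal heart failure than in dTGR. Against SD control they were lower by log2 differences of -0.22, -0.55 and -0.52, and this direction held under all 3 other scalings. Acta1 differed the other way in that comparison, by 0.42. The dimmer M60666_s_at had 168 in terminal heart failure, 73.3 with losartan and 150 in dTGR, against 135 in SD control. It was lowest with losartan, 2.05-fold below dTGR, and 2.30-fold higher in terminal heart failure than with losartan. The fifth Tpm1 probe set, rc_AI144767_s_at, was under the floor on all 4 arrays.

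Tpm2 (L00382cds_at), the beta-tropomyosin gene, had 133 in terminal heart failure, 9.04 with losartan and 164 in dTGR, against 64.1 in SD control. It was 2.56-fold higher in dTGR and 2.07-fold higher in terminal heart failure than in SD control, and the dTGR difference was at least 2-fold under every scaling and floor tried. The losartan value lay under the floor, which makes it at least 6.32-fold lower than dTGR, at least 2.47-fold lower than SD control and at least 5.12-fold below terminal heart failure. With the higher floor of 66.2 the SD control value is also under the floor and the losartan difference from SD control is no longer measured. This rests on 1 dim probe set, which ranked 1697 of 7006 on the array where it was highest.

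Tpm3 encodes the gamma-tropomyosin of slow skeletal muscle and of the cytoskeleton. S82383_s_at, its brightest probe set, had 1122 in terminal heart failure, 597 with losartan and 556 in dTGR, against 726 in SD control. It was highest in terminal heart failure, 2.02-fold above dTGR (log2 1.01, and 0.90 with quantile normalization) and 0.63 above SD control on the log2 scale. The probe set rc_AA859305_s_at had 179 in terminal heart failure, 107 with losartan and 184 in dTGR, against 116 in SD control, so terminal heart failure and dTGR were close and both above the other arrays. L24776_at had 48.0 in terminal heart failure, 37.9 with losartan and 78.1 in dTGR, and lay under the floor at 8.07 in SD control. Its dTGR value was at least 3.0-fold that of SD control and 2.06-fold that with losartan. The other 2 Tpm3 probe sets, rc_AA818554_s_at and L24777_at, were under the floor on all 4 arrays.

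Tpm4, a cytoplasmic tropomyosin of non-muscle cells, had 506 in terminal heart failure, 465 with losartan and 655 in dTGR, against 545 in SD control, for J02780_at. No log2 difference between 2 arrays exceeded 0.50 in size for it. The dimmer rc_AI105374_at had 97.5 in terminal heart failure and 79.8 with losartan, lay under the floor at 15.0 in dTGR, and had 56.2 in SD control. Its terminal heart failure value was at least 3.75-fold, and its losartan value at least 3.07-fold, that of dTGR, and it was at least 2.16-fold lower in dTGR than in SD control. The brighter Tpm4 probe set had its highest value on the same dTGR array. Both Tpm4 probe sets split as the chip lots do, in opposite directions, so lot and group cannot be told apart in their differences between lots.

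**Figure D3:**
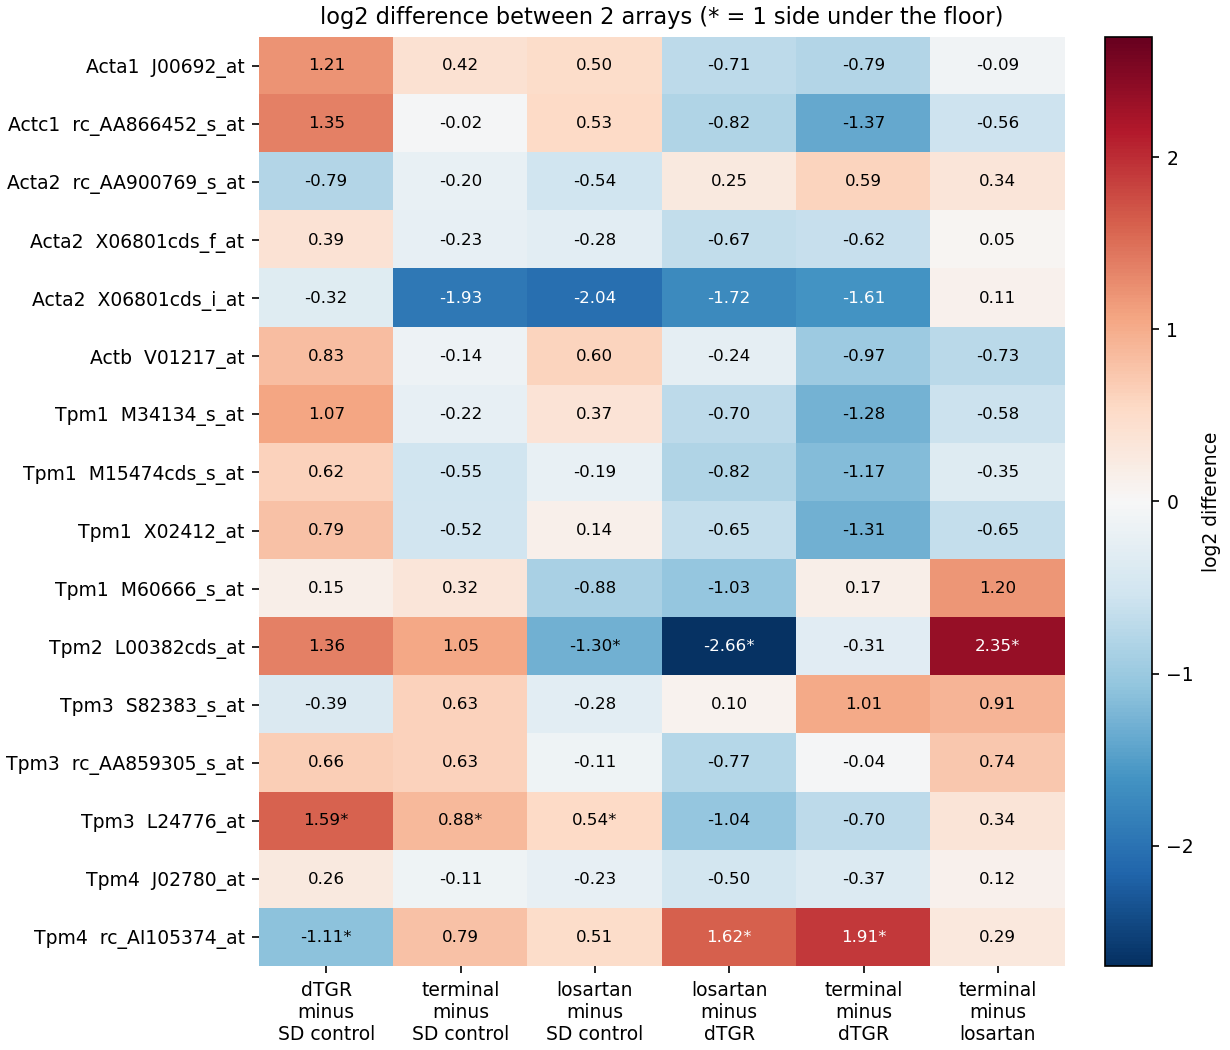
Log2 differences of member probe sets (rows) in each of the 6 comparisons (columns), with blue for lower and red for higher in the group named first, for the 16 above the floor on at least 1 array. A star marks a bound, with 1 side under the floor. The probe sets of 1 gene often differ in sign, as for Acta2 in dTGR against SD control (-0.79, 0.39 and -0.32).

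Terminal heart failure against SD control gave 1 of 16 probe sets at least 2-fold higher (Tpm2) and 1 at least 2-fold lower (Acta2 X06801cds_i_at), beside 7.36% higher and 8.58% lower among 4685 probe sets. Their median was -0.07, against -0.11 over all, and these shares are near the background. Losartan-treated dTGR against SD control gave 0 higher and 2 lower (Acta2 X06801cds_i_at and Tpm2), beside 2.73% and 6.15%. The sarcomeric members with losartan lay between dTGR and SD control for Acta1 and Actc1, with log2 differences from SD control of 0.50 and 0.53.

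Losartan-treated dTGR against dTGR, the comparison that asks what the receptor blocker does in the transgenic strain, gave 1 higher (Tpm4 rc_AI105374_at) and 4 lower (Acta2 X06801cds_i_at, Tpm1 M60666_s_at, Tpm2 and Tpm3 L24776_at), beside 5.79% higher and 10.4% lower. The median over the 16 was -0.70, against -0.08 over all probe sets and -0.28 over the 140 bright ones, and it was -0.47 with equal medians, -0.23 with quantile normalization and -0.54 with cyclic loess. Terminal heart failure against dTGR gave 2 higher (Tpm3 S82383_s_at and Tpm4 rc_AI105374_at) and 5 lower (Actc1, Acta2 X06801cds_i_at and 3 of Tpm1), beside 8.28% and 11.3%. With quantile normalization this was 1 higher and 1 lower, and with cyclic loess 2 higher and 1 lower. Terminal heart failure against losartan gave 2 higher (Tpm1 M60666_s_at and Tpm2) and 0 lower, beside 8.94% and 6.8%. These comparisons share arrays, so their values are not independent of each other.

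**Figure D4:**
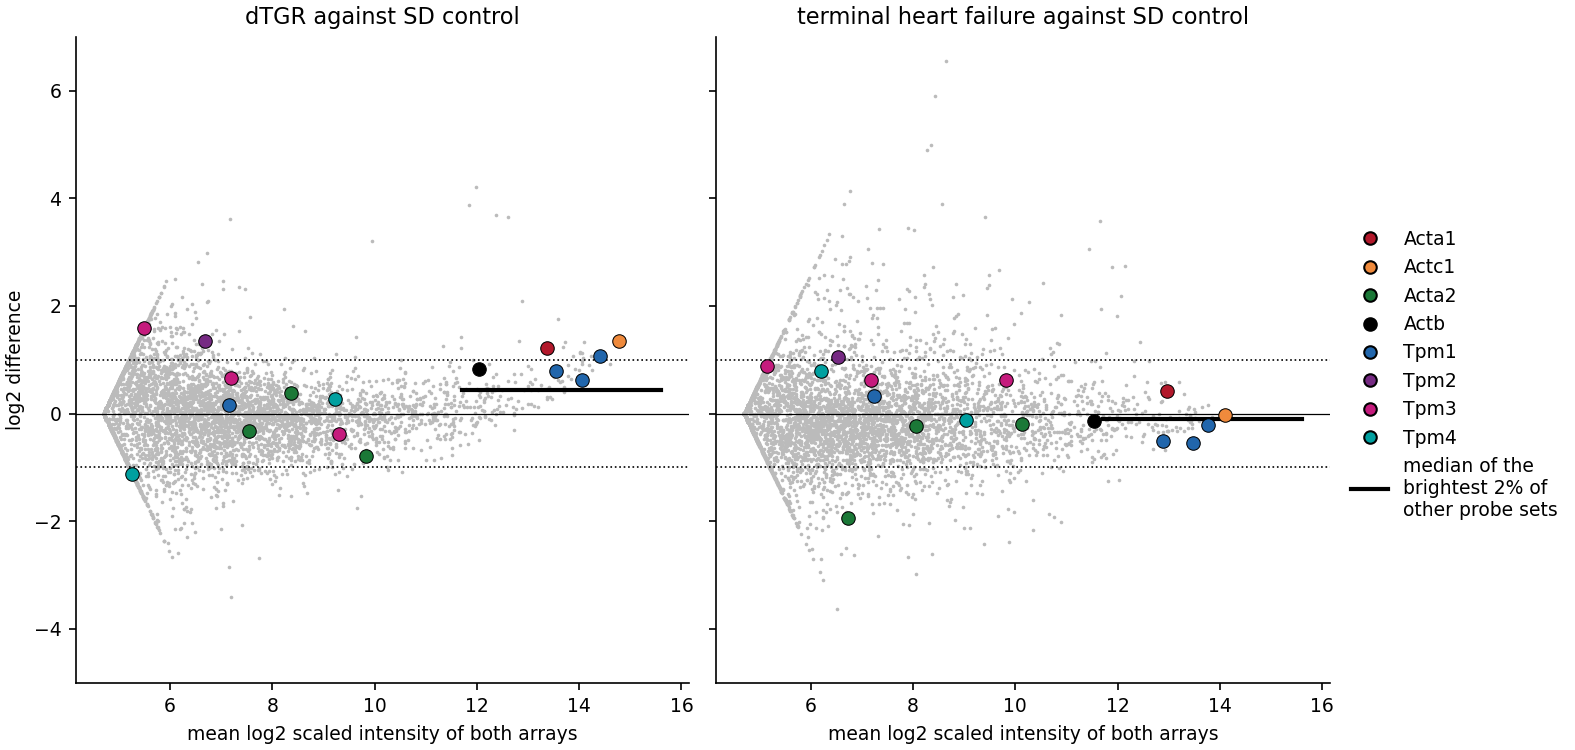
Log2 difference (y axis) against mean log2 scaled intensity (x axis) in dTGR against SD control and in terminal heart failure against SD control. Each grey point is a probe set with 1 gene symbol, coloured points are the members, dotted lines mark 2-fold and the black bar is the median of the 140 brightest other probe sets. In dTGR the bright members lie above 0 together with that bar at 0.43, and in terminal heart failure the bar is at -0.10.

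Differences between members on the same pair of arrays do not move with a common scale factor. Acta1 minus Actc1, which sets the skeletal against the cardiac alpha-actin, was -0.14 on the log2 scale in dTGR against SD control and 0.44 in terminal heart failure against SD control. So, by 1 probe set each, both actins were higher by a similar factor in dTGR, and in terminal heart failure Acta1 was higher relative to Actc1. The 0.44 is smaller than the SD of 0.51 between probe sets of 1 gene in that comparison. The terminal value was 0.46 with cyclic loess and 0.51 with quantile normalization, while the dTGR value turned to 0.07 and 0.55. In losartan-treated dTGR against SD control it was -0.03.

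Tpm2 minus Tpm1, beta- against alpha-tropomyosin, was 1.27 in terminal heart failure and 0.29 in dTGR, both against SD control. The terminal value ranged from 1.22 to 1.43 over the alternatives, and the dTGR value reached 1.48 with quantile normalization. Losartan against dTGR gave -1.96, a bound on the Tpm2 side since Tpm2 was under the floor. Acta2 minus Actb, by their brightest probe sets, was -1.62 in dTGR, -1.13 with losartan and -0.06 in terminal heart failure, each against SD control. This pair depends on the probe sets chosen. With losartan the 3 beta-actin controls gave -0.69, -1.44 and -1.32, all below the -0.54 of Acta2, which would turn the sign. In dTGR those controls gave 0.36, -0.22 and -0.15, and the other Acta2 probe sets gave 0.39 and -0.32. For scale, log2 differences of different probe sets of 1 gene varied around their gene's mean with an SD of 0.51 to 0.60 over 739 to 791 genes.

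**Figure D5:**
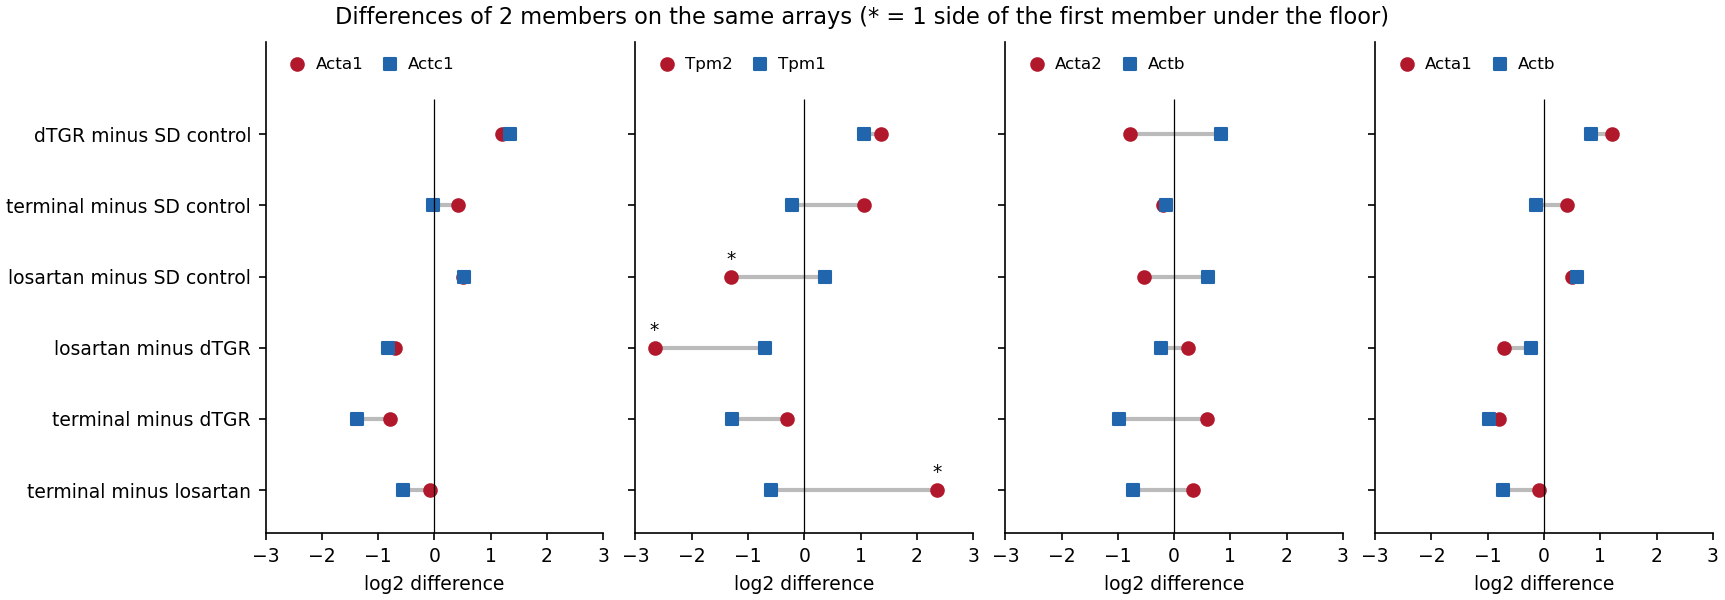
Log2 differences (x axis) of 2 members in each of the 6 comparisons (rows), with a circle for the gene named first, a square for the other and a grey line for the distance between them. The pairs are Acta1 and Actc1, Tpm2 and Tpm1, Acta2 and Actb, and Acta1 and Actb, each by its brightest probe set, and a star marks a bound. In terminal heart failure against SD control the distance is 1.27 for Tpm2 and Tpm1, and in dTGR against SD control it is -1.62 for Acta2 and Actb. Other probe sets of Acta2 and of beta-actin gave other differences.

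The proteins that bind thin filaments were read from lists, 1 brightest probe set per gene. Of 18 listed sarcomeric thin filament partners 11 were on the array. In dTGR against SD control, 2 of the 6 that could be compared were at least 2-fold higher and 0 lower, beside 7.69% higher and 5.87% lower over 3614 genes, with a median of 0.57 against 0.03. Cardiac troponin T (Tnnt2) had 11923 in terminal heart failure, 14800 with losartan and 24553 in dTGR, against 11284 in SD control. Like the bright actins it was highest in dTGR, 2.18-fold above SD control. Cardiac troponin I (Tnni3) was 1.96-fold higher there by its brightest probe set and 0.46 on the log2 scale by another, Mybpc1, a slow skeletal myosin-binding protein, was at least 2.26-fold higher, and Tmod1, which caps filament ends, differed by -0.38. In terminal heart failure against SD control 1 of 7 was higher, Mybpc2, a fast skeletal myosin-binding protein (at least 4.50-fold), beside 6.38% higher and 8.4% lower over 3371 genes.

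The other actins and actin-related proteins had 5 of 12 genes on the array. In dTGR against SD control 1 of 4 was at least 2-fold higher, beside 7.69% of all genes: Actg2, the enteric smooth muscle actin, had 82.1 in terminal heart failure, 40.6 with losartan and 157 in dTGR, against 60.01 in SD control, which is 2.62-fold. In terminal heart failure 0 of 4 were at least 2-fold different, beside 6.38% of all genes higher and 8.4% lower, and Arpc1b, a subunit of the Arp2/3 complex that starts branched filaments, was nearest at 1.78-fold. Of 11 genes of monomer and filament dynamics, 0 were higher and 2 lower in dTGR, beside 7.69% and 5.87% of all genes: Cap2, a monomer-binding protein (2.90-fold), and Wasl, which activates the Arp2/3 complex (at least 3.67-fold). The capping protein Capg was the 1 of 11 that was higher in terminal heart failure (2.04-fold), and 0 were lower.

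Among crosslinkers and adapters of actin, 6 of 21 were at least 2-fold higher and 2 lower in terminal heart failure against SD control, beside 6.38% and 8.4% of all genes, with a median of 0.28 against -0.14. In dTGR against SD control 1 of 22 was higher and 0 lower, beside 7.69% and 5.87%, with a median of 0.20 against 0.03. In losartan against dTGR the median was -0.43, against -0.05 over all genes. Of 22 genes 0 were higher and 3 lower there, beside 5.79% higher and 10.4% lower among all 5058 probe sets compared. Pdlim5, a PDZ and LIM adapter at the Z-disc, had 404 in terminal heart failure, 49.4 with losartan and 101 in dTGR, against 48.3 in SD control. Flnc, the muscle filamin, had 3449 in terminal heart failure, 803 with losartan and 1043 in dTGR, against 643 in SD control. Both were highest in terminal heart failure, 8.37-fold and 5.37-fold above SD control, and another probe set of each gave 2.52 and 2.58 on the log2 scale. Msn (moesin, 3.07-fold) and Cttn (cortactin, 2.53-fold), which tie filaments to the cell cortex, were also higher, as were Pdlim3 and Csrp3, and Ldb3 and Fhl2 were lower. Macrophage markers moved with the same array: 4 of 5 differed by at least 2-fold upward from SD control in terminal heart failure, and their summed intensity over 7 genes was 4476 in terminal heart failure, 1573 with losartan and 2229 in dTGR, against 1480 in SD control. Their part in these differences was not tested.

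Over all genes 7.69% were higher and 5.87% lower in dTGR against SD control, and 6.38% and 8.4% in terminal heart failure against SD control, beside the counts that follow. Smooth muscle contractile genes gave 0 of 7 higher and 1 lower in dTGR (Myh11) and in terminal heart failure (Myl9), with medians of 0.17 and -0.15. Of the 3 measured genes listed as serum response factor and its cofactors, 0 were 2-fold different in dTGR, and Gata4, a cardiac transcription factor, was 2.05-fold lower in terminal heart failure by its brightest probe set and differed by -0.47 on the log2 scale by another. Srf itself was not analysed here. Of 8 fibroblast markers 1 was higher and 1 lower in dTGR, and terminal heart failure had 1 higher and 3 lower. Among 5 endothelial markers 1 was higher in dTGR, and 1 of 4 was lower in terminal heart failure. Among atrial markers Nppa, the natriuretic peptide gene that the loaded ventricle also expresses, was the 1 that exceeded SD control 2-fold or more, in terminal heart failure (6.67-fold), with losartan (3.07-fold) and in dTGR (12.5-fold).

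Genes with the nearest pattern were ranked by the root mean square difference of centred log2 values over the 4 arrays, among 3449 probe sets above the floor on all of them. For Acta1 they were Zfp180 (0.041), Tspan17 (0.069) and Hcrt (0.073), all at intensities of 71.5 to 198. For Tpm2, with its losartan value at the floor, they were Flt1 (0.286), Hspb1 (0.346) and Pam (0.349). Hspb1, a small heat shock protein that binds actin, had 7581 in terminal heart failure, 943 with losartan and 5004 in dTGR, against 2158 in SD control. With 4 points and so many candidates, close patterns are easily found, and nothing about shared control follows from the likeness.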

How the data were processed

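Total RNA of rat left ventricle was measured on 4 Affymetrix rat genome U34 arrays (array A), 1 per group by the sample titles. The values the authors deposited are linear intensities, already adjusted to a common level. Neither the software that made them nor its detection calls could be read from labels or file headers. Low values had been altered: 13625 of the 15281 values from 1 to under 32 had the decimals of a day and month, which moves them by less than 1 unit, and 15 of the 76 member values were under 32, all under the floor.

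Genes were named through the platform annotation, old in part, and 1426 probe sets with no symbol, 308 with several and 59 controls were left out of counts. Each array was scaled to the same mean after trimming 2% of probe sets at each end, values under the floor (26, the 40th percentile of all values) were set to it, and log2 differences were taken. A probe set was compared where at least 1 of both arrays was above the floor and called at 2-fold. No test, SD or p-value is possible with 1 array per group, and their number limits the precision. Equal medians, quantile normalization and cyclic loess, and floors at the 25th and 60th percentile or none (values under 1 set to 1), were the alternatives. The calling step was tested on simulated data.

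The members, gene lists and markers were chosen with earlier results of these data known. The text names all member probe sets, per list up to 4 genes that differed most in dTGR and in terminal heart failure against SD control, and the 3 genes nearest in pattern to Acta1 and to Tpm2. Pdlim3, Csrp3, Ldb3, Fhl2 and the markers named beyond that rule were named after their values were seen, as parts of a count given. Names and promoter windows came from RefSeq (GRCr8), and 8 of 8 members were found in its gene table. Python 3.11.15, numpy 2.4.6, pandas 2.3.3, matplotlib 3.10.9, R 4.3.3 and limma 3.58.1 were used.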

Additional observations from a re-analysis of the deposited data

Results flagged for a closer look

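The array carries control probe sets for the opposite strand of rat beta-actin and GAPDH, which no comparison above used. They are listed where a value was above the floor of 26 and above that of SD control. On the terminal heart failure array the 3′ beta-actin one had an intensity of 66.5, against 4.07 in SD control. The middle beta-actin one had 77.7 in terminal heart failure and 27.1 with losartan, against 5.09 in SD control. The 3′ GAPDH one had 107 in terminal heart failure, 54.9 with losartan and 86.2 in dTGR, against 19.1 in SD control. The 5′ GAPDH one had 121, 39.1 and 98.6 on these arrays, against 25.01 in SD control, and the middle one 175, 78.5 and 91.2, against 64.6 in SD control. All of them were highest in terminal heart failure, and no difference was tested, since each value is 1 array.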

How the results depend on the processing

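Counts of members at least 2-fold different are small and moved with the scaling. In dTGR against SD control the 5 higher became 3 with equal medians, 2 with quantile normalization and 2 with cyclic loess, and the 1 lower became 2 with equal medians, 0 with the floor at the 60th percentile and 2 with no floor. For terminal heart failure against SD control the 1 higher became 2 with the floor at the 25th percentile and 3 with none. In losartan against SD control the 0 higher became 1 with the floor at the 25th percentile and 3 with none, and the 2 lower became 1 with the floor at the 60th percentile. In losartan against dTGR the 1 higher became 0 with the floor at the 60th percentile and 2 with none, and the 4 lower became 2 with equal medians and 2 with quantile normalization. For terminal heart failure against dTGR the 2 higher became 1 with quantile normalization and 1 with the floor at the 60th percentile, and the 5 lower became 3 with equal medians, 1 with quantile normalization and 1 with cyclic loess. With quantile normalization Tpm1 M34134_s_at turned to -0.072 in dTGR against SD control, and Actc1 turned to 0.040 in terminal heart failure against dTGR. At the higher floor Tpm4 rc_AI105374_at lost its calls. In dTGR against SD control both of its values, 15.0 and 56.2, lay under 66.2, so it was no longer compared. Against losartan and terminal heart failure its dTGR value was set to 66.2 in place of 26. The cause of the other moves was not tested.

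Of the log2 differences of single probe sets 533 stayed within the spread used and 41 moved. Equal medians moved the median of all probe sets by -0.21 in dTGR against SD control, 0.19 in losartan against dTGR and 0.24 in terminal heart failure against dTGR. The calls over all probe sets were then 237 higher and 530 lower (beside 400 and 308), 458 and 335 (beside 293 and 528), and 656 and 298 (beside 417 and 568). Quantile normalization gave 384 and 436 in losartan against dTGR and 504 and 432 in terminal heart failure against dTGR. Cyclic loess gave 553 and 349 in the last, 425 and 278 (beside 345 and 402) in terminal heart failure against SD control, and 502 and 245 (beside 422 and 321) in terminal heart failure against losartan. Values near the floor and single dim probe sets limit Tpm2, Tpm4 and the smaller Tpm3 differences. No paired analysis was possible because each group has 1 array.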
